A study of Rattus norvegicus with 40 samples.

Results

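Imprinted genes that govern fetal growth were followed in whole intestine and whole lung of rat embryos shortly before birth. The 10 genes chosen were Igf2, Igf2r, H19, Dlk1, Meg3, Cdkn1c, Peg3, Mest, Grb10 and Plagl1, taken as a set, and members were found by matching the platform annotation's gene symbol. Of these, 9 were represented, by 16 of the 31099 probe sets (groups of short oligonucleotides for a transcript). Peg3 was matched by no probe set symbol and was not analysed here. The fit covered 14218 genes. The 40 arrays formed 4 groups of 10: intestine at gestational day 16 (E16), intestine at day 20 (E20), lung at E16 and lung at E20, all from Wistar rat embryos with no treatment or genetic change named. The labels describe tissue frozen from several siblings and do not settle whether an array holds 1 embryo, so p-values speak only of the scatter among these samples, part of which may be technical. Labelling used 1 µg of RNA from intestine but 2 µg from lung, and tissue and input cannot be told apart.

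Imprinted genes are expressed mainly from the copy inherited from a given parent, because the parental copies carry different DNA methylation at control regions. Many act on the size of the fetus: as a rule, paternally expressed members such as Igf2, Dlk1, Mest and Peg3 favour growth, while maternally expressed members such as Cdkn1c, Grb10 and Igf2r restrain it. They tend to lie in clusters under shared control. Igf2 and H19 are neighbours on rat chromosome 1 and compete for the same enhancers, with Cdkn1c further along, and Dlk1 and Meg3 form a cluster on chromosome 6. Many of them are high in fetal organs and decline after birth. The arrays do not separate the parental copies, so every value below is the sum of both.

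Values are log2 of the deposited intensity, and SD is the spread over the 10 arrays of a group. A change counted as called where limma gave p under 0.05, adjusted by Benjamini-Hochberg across all 14218 genes, and the size was at least 2-fold (1 log2 unit). Array medians ran from 220 to 264 intensity units. Lung epithelium markers (5 genes, such as the surfactant gene Sftpc) averaged 8.95 to 9.71 in the E16 lung arrays and 12.14 to 12.81 at E20, against 6.03 to 6.81 in intestine of either age. The 4 measured intestinal epithelium markers averaged 11.62 to 11.95 in intestine at E20. At E16 they averaged 7.26 to 8.50, with only 1 of 4 above the median of all log2 values (7.89), against 6.72 to 7.04 in lung. Cardiac muscle markers stood over 1 log2 unit above the group median in lung E16 replicates 2, 5, 7 and 9 (up to 11.71, group median 7.82). Liver markers did so in intestine E16 replicate 9 and lung E20 replicates 1 and 8, pancreas markers in intestine E16 replicates 6, 8 and 9, and mesothelium markers in lung E20 replicate 6. Intestine E20 replicate 9 had the highest liver markers of its group (9.47, median 8.67). Without all 11 of these arrays, the counts of called members given below were the same in every comparison.

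The 300 bases around the start sites of Dlk1 and Meg3 (250 before and 50 after, from RefSeq, GRCr8 build) are shown because these neighbours changed together in opposite directions in the tissues. Capitals mark CG dinucleotides, the sites of DNA methylation in mammals.
Dlk1, chr6:134192347-134192646, plus strand: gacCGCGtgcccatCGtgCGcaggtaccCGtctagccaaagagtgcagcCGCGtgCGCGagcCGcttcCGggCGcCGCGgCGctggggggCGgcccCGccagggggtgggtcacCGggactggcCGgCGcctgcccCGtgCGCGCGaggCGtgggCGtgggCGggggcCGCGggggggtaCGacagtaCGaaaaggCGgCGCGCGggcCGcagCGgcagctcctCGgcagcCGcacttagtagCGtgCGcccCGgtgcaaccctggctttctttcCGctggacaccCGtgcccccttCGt
Meg3, chr6:134273806-134274105, plus strand: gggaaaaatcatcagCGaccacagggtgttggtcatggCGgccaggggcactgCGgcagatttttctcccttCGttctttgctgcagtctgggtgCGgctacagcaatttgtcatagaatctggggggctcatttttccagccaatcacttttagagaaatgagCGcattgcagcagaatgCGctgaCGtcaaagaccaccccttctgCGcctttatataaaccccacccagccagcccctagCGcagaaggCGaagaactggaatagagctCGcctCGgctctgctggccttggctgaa
The Dlk1 window held 45 CG dinucleotides and the Meg3 window 13, against a median of 7 and an upper quartile of 19 over 33469 promoter windows of this length. The window of Meg3 held the letters TATAAA, searched on both strands, and that of Dlk1 did not; 14.2% of all windows did. Of the 9 windows found for 8 members, Dlk1, Grb10 (44 CG), Igf2r (30) and Plagl1 (29) lay above the upper quartile. The letters GGGGCCCC, a motif bound by Plagl1, were searched on both strands; the window of Peg3 was the only member window to hold them, against 0.858% of all windows. H19 and Cdkn1c had no entry.

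In the intestine, 5 of the 9 members fell from E16 to E20 and none rose by the criteria, whereas in the lung 2 rose and none fell. The intestinal falls were in Dlk1, Meg3, Grb10, Plagl1 and Mest, by 2.65-fold to 4.01-fold, and the rises in lung were in Dlk1 (20.9-fold) and Meg3 (3.19-fold). Over all genes, 15.1% were called in intestine (6.26% lower, 8.79% higher) and 11.8% in lung (4.63% lower, 7.15% higher). The members' median change was -1.40 in intestine and -0.49 in lung, beside -0.086 and -0.0064 over all genes. With limma's unadjusted p under 0.05 and no minimum of fold, 3 members were higher and 6 lower in intestine, and 3 higher and 5 lower in lung. Even with limma's adjusted p under 0.05, 4195 of 14218 genes were higher and 5964 lower in intestine, and 4692 and 4787 in lung. The 2 ages were fully apart for 6 of 9 members in each tissue, a pattern seen for 37.6% of all genes in intestine and 31.1% in lung. The change from E16 to E20 differed between the tissues for 6 members, relative to intestine upward in lung for Dlk1, Meg3, Mest and Grb10 and downward for Igf2 and H19 (called for 17.6% of all genes, 9.13% upward and 8.48% downward). Centring each array on its median moved the median of all genes in this contrast by -0.13, and the share of called genes that were upward from 51.9% to 42.4%.

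**Figure D1:**
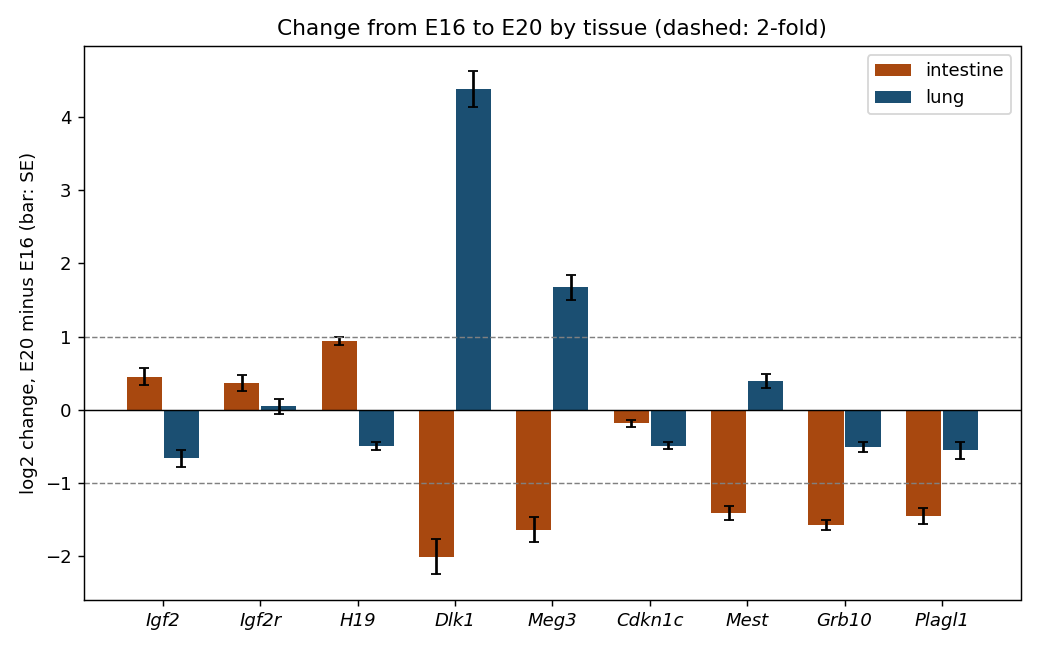
Change in log2 intensity from E16 to E20 (vertical axis) for the 9 measured members in intestine and lung; bars are limma estimates with SE, 10 arrays in each group, and dashed lines mark 2-fold. The lung bar of Dlk1 reaches 4.38 while its intestine bar lies at -2.0, and Igf2 and H19 point up in intestine and down in lung.

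Igf2 encodes the fetal insulin-like growth factor that drives growth through the IGF1 and insulin receptors. It was bright in every array. In intestine its lowest, median and highest values were 13.42, 13.72 and 14.15 at E16 and 13.88, 14.21 and 14.54 at E20. In lung they were 12.89, 13.60 and 13.85 at E16 and 12.46, 12.80 and 13.04 at E20. The ages overlapped in both tissues, with 4 of 10 intestine arrays of E20 inside the E16 range. The mean was higher at E20 in intestine (13.76 ± 0.25 to 14.21 ± 0.23 as mean ± SD of 10 arrays; change 0.45, SE 0.11, limma adjusted p = 0.000511) and lower in lung (13.46 ± 0.37 to 12.80 ± 0.16; change -0.66, SE 0.11, limma adjusted p = 2.55e-06). Neither reached 2-fold, so neither was called. The difference between the changes was -1.12 (SE 0.16, limma adjusted p = 9.38e-08) and was called. The other 3 Igf2 probe sets lay below the median of all log2 values in all 40 arrays, with group means of 5.97 to 7.43, and when all 4 were averaged the difference was -0.38.

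H19 is a long noncoding RNA of the maternal chromosome and the host of miR-675. By position in GRCr8 both mature forms lie inside it; they are shown with the seed (bases 2 to 8) in capitals as the products of this transcript, and were not measured by these values.
rno-miR-675-5p: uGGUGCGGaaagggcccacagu
rno-miR-675-3p: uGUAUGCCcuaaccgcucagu
In intestine, H19 spanned 13.82, 13.95 and 14.10 (lowest, median, highest) at E16 and 14.76, 14.92 and 15.03 at E20. In lung it spanned 13.34, 13.68 and 13.79 at E16 and 12.99, 13.11 and 13.32 at E20. None of the 6 pairs of groups overlapped, so every array of intestine at E20 was above all others and every array of lung at E20 below all others. The gaps were narrow between the ages in lung (13.34 against 13.32) and between the tissues at E16 (13.82 against 13.79). The change in intestine was 0.95 (13.96 ± 0.10 to 14.91 ± 0.09 as mean ± SD of 10 arrays; SE 0.055, limma adjusted p = 4.71e-19), 1.93-fold and so just short of the fold criterion. In lung it was -0.49 (13.63 ± 0.16 to 13.14 ± 0.10; SE 0.055, limma adjusted p = 1.65e-10). The changes differed by -1.44 (SE 0.078, limma adjusted p = 8.99e-20). H19 and Igf2 thus had the same order of groups: intestine E20, intestine E16, lung E16, lung E20.

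Igf2r encodes the receptor that clears Igf2 to the lysosome. Its brighter probe set gave 10.53, 10.95 and 11.38 in intestine at E16 and 11.01, 11.24 and 11.49 at E20, with 7 of 10 E20 arrays inside the E16 range. In lung it gave 11.46, 11.81 and 12.05 at E16 and 11.05, 11.88 and 12.20 at E20, with the ages overlapping almost fully. The change was 0.37 in intestine (SE 0.10, limma adjusted p = 0.00175) and 0.052 in lung (SE 0.10, limma adjusted p = 0.672), and neither was called. The second probe set gave 0.67 and 0.075. In lung E20 replicate 6, the array with mesothelium transcripts, Igf2r stood at 11.05, apart from the others.

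Cdkn1c encodes the cyclin-dependent kinase inhibitor p57, which slows cell division. It varied little within groups. Its range was 13.51 to 13.86 in intestine at E16, 13.29 to 13.63 in intestine at E20, 13.05 to 13.31 in lung at E16 and 12.51 to 12.79 in lung at E20. The lung groups did not overlap, and the change was -0.49 (SE 0.049, limma adjusted p = 7.82e-12), 1.40-fold and not called. In intestine it was -0.19 (SE 0.049, limma adjusted p = 0.000833). This was the smallest change of the 9 members in intestine.

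**Figure D2:**
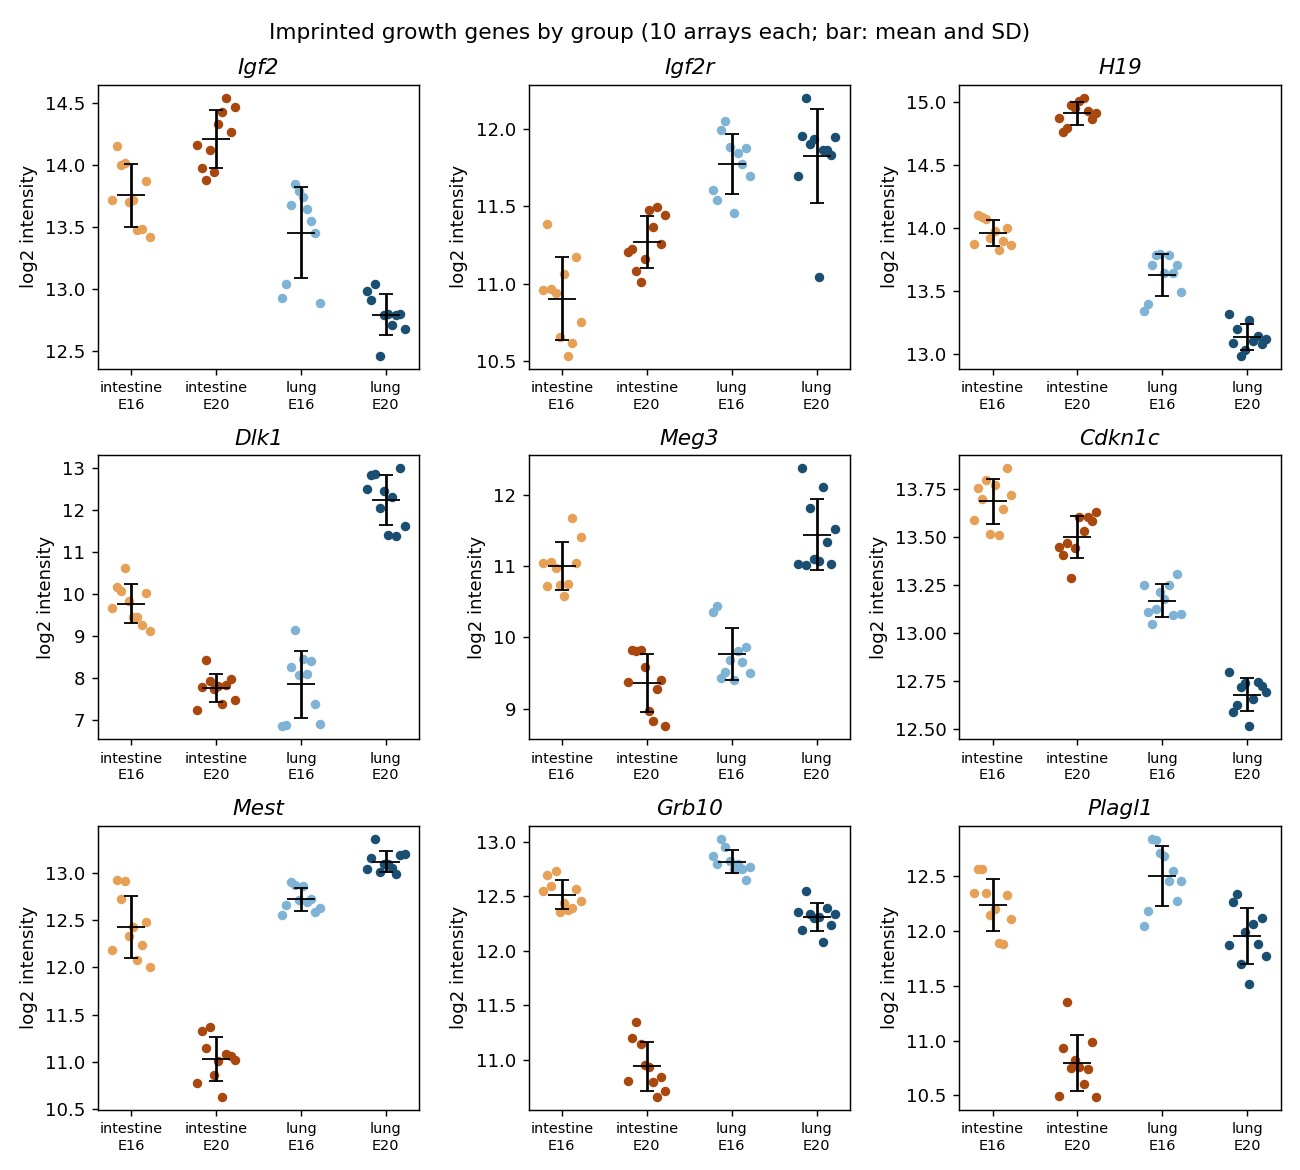
Log2 intensity (vertical axes, different for each gene) of the brightest probe set of the 9 members in each array, by group (horizontal axes); points are arrays, and bars give the mean and SD of 10. H19 separates all 4 groups, Dlk1 in lung at E20 (11.37 to 12.99) stands above the other groups, and Mest, Grb10 and Plagl1 are lowest in intestine at E20.

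Dlk1 encodes a membrane protein related to Notch ligands that marks immature mesenchymal and precursor cells. It changed most among the members. In lung its lowest, median and highest values were 6.86, 8.09 and 9.15 at E16 and 11.37, 12.38 and 12.99 at E20. In intestine they were 9.13, 9.75 and 10.62 at E16 and 7.25, 7.80 and 8.44 at E20. The ages were far apart in both tissues and in opposite directions. Mean ± SD in lung (n = 10) was 7.85 ± 0.79 and then 12.24 ± 0.60 (change 4.38, SE 0.24, limma adjusted p = 1.98e-19), and mean intensity from 264 to 5201 units. In intestine it went from 9.77 ± 0.46 to 7.77 ± 0.34 (change -2.0, SE 0.24, limma adjusted p = 1.31e-09). The 2 low groups lay near the median of all log2 values, with 6 of 10 lung arrays at E16 and 3 of 10 intestine arrays at E20 above it, so the fold depends on the background there. Lung E16 replicates 1, 2 and 10 held the lowest values, 6.86 to 6.92, against 7.39 to 9.15 in the other 7. The difference between the changes was 6.39 (SE 0.34, limma adjusted p = 8.99e-20).

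Meg3 is the long noncoding RNA expressed from the maternal copy beside Dlk1. Its brighter probe set gave 9.41, 9.67 and 10.44 in lung at E16 and 11.02, 11.21 and 12.37 at E20. In intestine it gave 10.58, 11.00 and 11.68 at E16 and 8.75, 9.38 and 9.83 at E20. Neither tissue showed overlap between ages. Meg3 rose in lung (9.77 ± 0.37 to 11.44 ± 0.50 as mean ± SD of 10 arrays; change 1.67, SE 0.17, limma adjusted p = 2.93e-11) and fell in intestine (11.00 ± 0.34 to 9.36 ± 0.41; change -1.63, SE 0.17, limma adjusted p = 4.51e-11). The second probe set gave 2.95 in lung and -0.78 in intestine, the latter short of 2-fold. The changes differed by 3.31 (SE 0.25, limma adjusted p = 2.58e-15). Genes called lower at E20 in intestine and higher at E20 in lung numbered 54 of 14218 (0.38%), Dlk1 and Meg3 among them.

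Marker lists of other cell types also differed between the ages in lung. The 7 mesenchyme markers, such as collagens, averaged 11.09 to 11.65 at E16 and 12.13 to 12.46 at E20, and the 4 endothelial markers 9.87 to 10.31 and 10.89 to 11.40. The lung epithelium markers had a median of 9.28 at E16 and 12.63 at E20. Lower at E20 were the cartilage markers (medians 9.17 and 6.66) and the erythroid markers (12.79 and 11.19). The part of these lists in the rises of Dlk1 and Meg3 was not tested. Liver markers, from a tissue that expresses Dlk1 in the fetus, were lower at E20 (6.39 to 6.67 in the 8 lung arrays other than replicates 1 and 8, 9.02 and 9.04 in those) than at E16 (7.42 to 8.61), and Dlk1 stood at 12.49 and 11.37 in replicates 1 and 8. Without all 11 arrays with transcripts of other tissues, the lung changes were 4.43 for Dlk1 and 1.92 for Meg3. In bulk tissue, fewer cells of a type and less RNA per cell cannot be told apart.

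**Figure D3:**
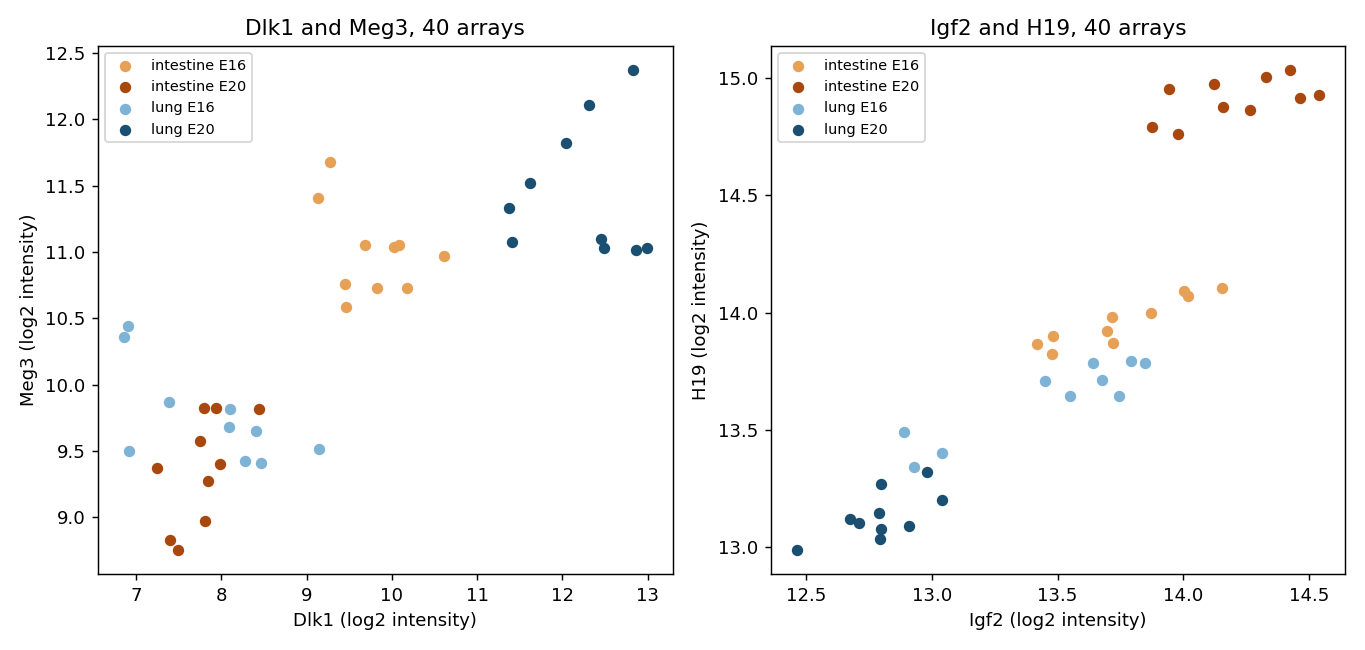
Log2 intensity of Meg3 against Dlk1 (left) and of H19 against Igf2 (right), each point an array, coloured by group. Lung at E20 lies highest for both genes of the left pair; in the right pair intestine at E20 lies highest and lung at E20 lowest, and H19 follows Igf2 within intestine at E16 (r = 0.93, n = 10).

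Mest, Grb10 and Plagl1 were lower at E20 in intestine, and their arrays of the ages did not overlap there. Mest encodes an enzyme of the hydrolase family made in fetal mesoderm. Its lowest, median and highest values in intestine were 12.00, 12.38 and 12.93 at E16 and 10.63, 11.04 and 11.37 at E20 (change -1.40, SE 0.095, limma adjusted p = 7.39e-17). In lung it went the other way without overlap, from 12.56, 12.70 and 12.90 to 12.99, 13.10 and 13.36 (change 0.40, SE 0.095, limma adjusted p = 0.000298), which was 1.32-fold and not called. The changes differed by 1.80 (SE 0.13, limma adjusted p = 2.75e-15).

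Grb10 encodes an adaptor that binds the insulin and IGF1 receptors and dampens their signal. In intestine it went from 12.36, 12.50 and 12.73 to 10.66, 10.89 and 11.35 (change -1.58, SE 0.069, limma adjusted p = 3.58e-23), and in lung from 12.65, 12.79 and 13.03 to 12.08, 12.32 and 12.55 (change -0.51, SE 0.069, limma adjusted p = 2.42e-08; not called). All its lung arrays at E16 were above those at E20. The difference between the changes, 1.07 (SE 0.098, limma adjusted p = 1.24e-12), lay just past 2-fold and fell to 0.94 when arrays were centred on their median. The other 2 probe sets gave -1.85 and -0.67 in intestine and -0.25 and -0.23 in lung.

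Plagl1 encodes a zinc-finger transcription factor that restrains proliferation and is known to regulate other imprinted genes. In intestine it went from 11.88, 12.26 and 12.57 to 10.49, 10.76 and 11.35 (change -1.44, SE 0.11, limma adjusted p = 3.78e-15). In lung it went from 12.05, 12.51 and 12.84 to 11.51, 11.94 and 12.34 (change -0.55, SE 0.11, limma adjusted p = 3.02e-05; not called), with 3 of 10 E16 arrays inside the E20 range. The changes differed by 0.89 (SE 0.16, limma adjusted p = 3.92e-06), short of 2-fold, or by 1.04 without the 7 arrays marked for other tissues in earlier results, where it was called.

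Beside the falls in intestine, the mesenchyme markers averaged 11.52 to 12.26 at E16 and 11.78 to 12.46 at E20. The mesothelium markers (3 measured) went from 9.21 to 10.09 at E16 to 8.45 to 9.29 at E20, the 4 erythroid markers from 12.86 to 13.79 to 9.34 to 10.33, the 5 cartilage markers from 7.91 to 8.50 to 6.62 to 6.95, and the intestinal epithelium markers from 7.26 to 8.50 to 11.62 to 11.95. Their part in the falls was not tested.

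Between tissues at the same age, all 9 members had a limma adjusted p under 0.05 at both ages, but 2 were called at E16 and 7 at E20. Most genes also had such a p: of 14218, 5721 were lower and 3389 higher in lung at E16, and 6048 and 4350 at E20. At E16 Dlk1 (-1.92, SE 0.24, limma adjusted p = 1.08e-08) and Meg3 (-1.23, SE 0.17, limma adjusted p = 1.08e-07) were lower in lung by at least 2-fold, where 5.13% of all genes were called (3% lower, 2.13% higher in lung). Centring the arrays moved the median of all genes in this comparison by 0.15, from -0.11 to 0.044, and turned the share of called genes that were higher in lung from 41.5% to 52.9%; the members kept their direction, and Igf2r (0.87) then reached 1.02 and passed. At E20, 7 of 9 members were called, against 16.1% of all genes. Dlk1 (4.47), Mest (2.09), Meg3 (2.08), Grb10 (1.37) and Plagl1 (1.16) were higher in lung (7.91% of all genes), and H19 (-1.77) and Igf2 (-1.42) lower (8.21%). The arrays of the tissues did not overlap for 8 of 9 members at E20 (34.1% of all genes) and for 4 of 9 at E16 (19.3%). Igf2r at E20, the exception, had 1 lung array, replicate 6, within the intestine range. These comparisons and those of age share arrays and are not independent of each other.

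The members fell into different orders of groups. For Igf2, H19 and Cdkn1c both intestine groups had higher means than both lung groups, and for Igf2r the reverse. Igf2 did not separate neighbours in its order (intestine E20 from E16, intestine E16 from lung E16, lung E16 from E20), whereas H19 separated all. For Dlk1 and the brighter Meg3 probe set the order was lung E20, intestine E16, lung E16, intestine E20. On the second Meg3 probe set the last groups swapped, with a mean of 8.33 in intestine at E20 and 7.67 in lung at E16. In Dlk1 8 of 10 lung arrays at E16 lay below the highest of intestine at E20 (8.44). Among them, replicates 1, 2 and 10 (6.86 to 6.92) also lay below its lowest (7.25). On the brighter Meg3 probe set 7 of 10 lung arrays at E16 lay within the range of intestine at E20. On that probe set 7 of 10 lung arrays at E20 also lay within the range of intestine at E16, whereas on the second the lowest lung array at E20 (9.777) lay just above the highest of intestine at E16 (9.770). For Mest, all 10 lung arrays at E16 lay inside the range of intestine at E16, and all other pairs of groups were apart. For Plagl1 and the brightest Grb10 probe set the order was lung E16, intestine E16, lung E20, intestine E20, and intestine at E20 was apart from the other 3 groups. On the second Grb10 probe set intestine at E16 was highest (10.78, against 10.25 in lung at E16 and 10.00 in lung at E20), and with all its probe sets averaged the E16 difference was -0.031.

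Within groups, 3 pairs of members that lie near each other were compared over the 10 arrays of each group (12 relations). Members that lie far apart were not tested, so a relation is not shown to be particular to neighbours. In intestine at E16, Igf2 was highest in replicate 2 (14.15) and lowest in replicate 10 (13.42). In these arrays Mest on chromosome 4 stood at 12.93 and 12.00, and Dlk1 on chromosome 6 at 10.18 and 9.13. Meg3 went the other way (10.72 and 11.40). Igf2 and H19 varied together in intestine at E16 (Pearson's r = 0.93, permutation p = 0.00031, adjusted 0.00372; Spearman's rho = 0.90, permutation p = 0.00071). In lung at E16 r was 0.91 (permutation p = 0.00192, adjusted 0.0115; rho = 0.76, permutation p = 0.0149). Without the 2 arrays farthest from the median of Igf2, r was 0.90 and 0.87. In lung at E16, however, replicates 1, 2 and 10 stood apart, with Igf2 at 12.89 to 13.04 and H19 at 13.34 to 13.49, against 13.45 to 13.85 and 13.64 to 13.79 in the other 7. Over those 7 arrays r was 0.45 (permutation p = 0.314) and rho 0.39 (permutation p = 0.396), so that the relation was weaker without the 3. The 3 were set aside by these same values, which narrows the range. Whether the relation there rests on them alone therefore cannot be decided. At E20, Igf2 and H19 gave r = 0.55 in intestine (permutation p = 0.101, adjusted 0.173; rho = 0.42, permutation p = 0.234) and 0.66 in lung (permutation p = 0.0370, adjusted 0.0888; rho = 0.56, permutation p = 0.0966), neither of which passed.

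Dlk1 and Meg3, which moved together between groups, did not vary together within them in a way that passed the test. Pearson's r was -0.37 in intestine at E16 (permutation p = 0.291, adjusted 0.387), 0.60 in intestine at E20 (0.0657, adjusted 0.131), -0.68 in lung at E16 (0.0286, adjusted 0.0857) and 0.042 in lung at E20 (0.903, adjusted 0.985), with rho of -0.37, 0.52, -0.70 and -0.33. Without the 2 arrays farthest from the median of Dlk1, r in lung at E16 was -0.30. There, replicates 1 and 2 were lowest in Dlk1 (6.86 and 6.90) and highest in Meg3 (10.36 and 10.44). Igf2 and Cdkn1c gave r = 0.70 in intestine at E20 (permutation p = 0.0248, adjusted 0.0857; rho = 0.75) and 0.51, 0.0040 and -0.13 in intestine at E16, lung at E16 and lung at E20 (adjusted permutation p of 0.201, 0.991 and 0.867).

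The list of other imprinted genes held 52, and whether each is imprinted in fetal intestine or lung was not tested. Of the 41 with a probe set, 2 rose and 6 fell in intestine, and 2 rose and 3 fell in lung. Over all genes, 15.1% were called in intestine (8.79% higher, 6.26% lower) and 11.8% in lung (7.15% higher, 4.63% lower). The median changes were -0.15 and 0.0080, beside -0.086 and -0.0064 over all genes. In intestine the largest were rises of Phlda2, a maternally expressed restraint on placental growth (2.92, SE 0.12, limma adjusted p = 5.91e-24), and of the transporter-like Slc22a18 (2.58), and falls of the neuronal growth suppressor Ndn (-1.85) and the sarcoglycan Sgce (-1.48). In lung they were a rise of the potassium channel Kcnq1 (2.09, SE 0.10, limma adjusted p = 3.15e-21), falls of Mcts2 (-1.24), a retrotransposed copy whose probes may also read its parent gene, and of Ndn (-1.23), and a rise of Slc22a18 (1.23). By RefSeq positions in GRCr8, 11 measured genes of this list lie within 1 Mb of Igf2, H19 or Cdkn1c. Of these, Phlda2 and Slc22a18 rose in intestine and Kcnq1 and Slc22a18 in lung, and none fell in either. Beside the shares of all genes given above, 11 genes are too few to read a shared direction from these counts. Near Dlk1 and Meg3, 2 were measured, Begain (-0.24 in intestine and 0.09 in lung) and the thyroid hormone deiodinase Dio3 (-0.07 and 0.27), and neither was called. Both were dim, with group means of 7.42 to 7.67 for Begain and 5.88 to 6.48 for Dio3. These lie below the median of all log2 values (7.89), where a missing call says little.

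**Figure D4:**
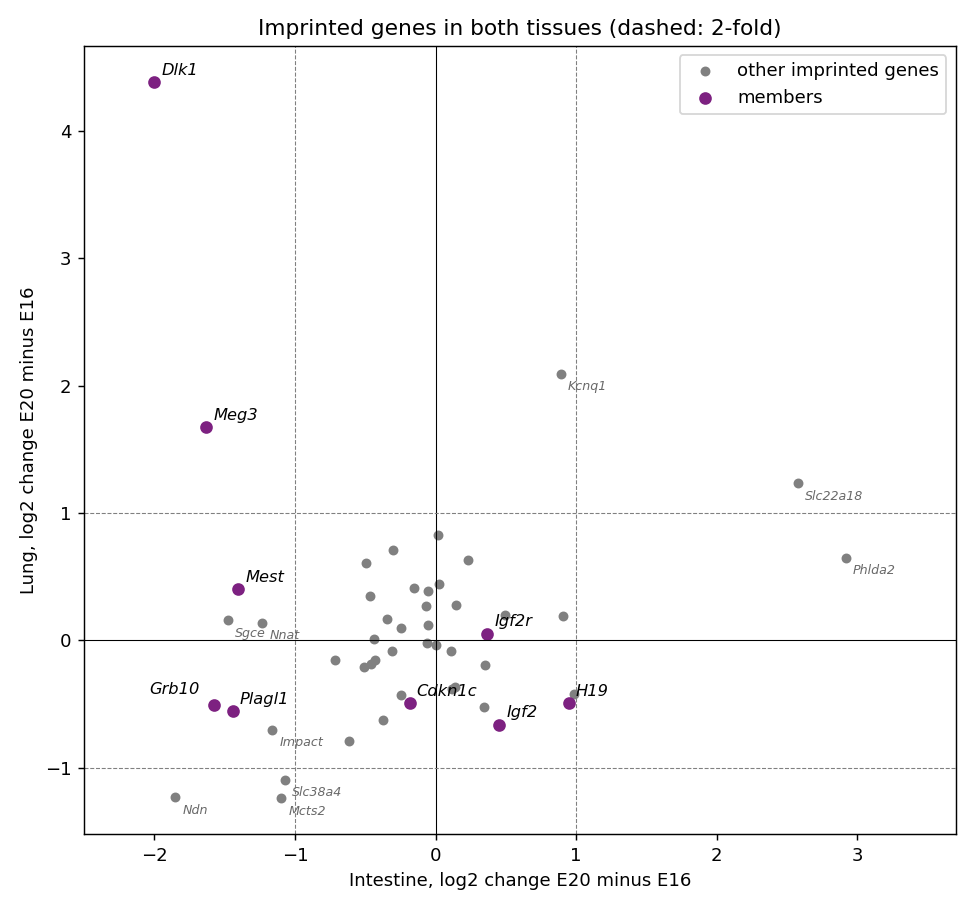
Log2 change from E16 to E20 in lung (vertical) against intestine (horizontal) for the 9 members and 41 other imprinted genes; dashed lines mark 2-fold, and grey names are genes called in either tissue. Dlk1 and Meg3 are the only points in the upper left beyond both lines, while Phlda2 and Slc22a18 lie far to the right.

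Among genes of IGF and insulin signalling, the binding proteins held most of the calls. Of 23 measured, 5 fell and 1 rose in intestine, and 2 rose and none fell in lung by limma (median changes -0.39 and 0.13). Over all genes, 6.26% were called lower and 8.79% higher in intestine, and 4.63% and 7.15% in lung. The median changes over all genes were -0.086 and -0.0064. In intestine the binding proteins Igfbp5 (-2.40, SE 0.13, limma adjusted p = 1.37e-19), Igfbp2 (-1.84) and Igfbp3 (-1.60), which hold IGFs in the circulation and matrix, fell, and the adaptor Grb7, a relative of Grb10, rose (1.60). Igfbp4 (-1.20) and the growth factor gene Igf1 (-1.01, just past 2-fold) also fell there, while Igf1 in lung changed by 0.36 and was not called. In lung, Igfbp6, which prefers Igf2 (1.96, SE 0.12, limma adjusted p = 7.26e-18), and Igfbp7 (1.49) rose. Of 5 measured genes that bind Igf2 mRNA or act in the let-7 pathway, none was called in either tissue by limma, with Igf2bp3 at 0.81 in intestine and -0.49 in lung.

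Counts for CDK inhibitors, imprint upkeep and the Notch pathway were small, beside shares of all genes of 8.79% higher and 6.26% lower in intestine, and 7.15% higher and 4.63% lower in lung. Of 7 CDK inhibitors besides Cdkn1c, the p53 target Cdkn1a rose in both tissues (1.33 in intestine, SE 0.14, limma adjusted p = 1.64e-11; 2.16 in lung), Cdkn2b rose in lung (1.03) and Cdkn2d fell in intestine (-1.23). The imprint upkeep list also holds Tet1, Tet2 and Tet3, which act in removing methylation. Of its 11 measured genes, 2 fell in intestine and 3 in lung, and none rose. Zfp57, which protects imprints, fell in intestine (-1.79, SE 0.11, limma adjusted p = 1.06e-17). The methyltransferase Dnmt3a fell in both (-1.09 and -1.55), and Uhrf1 (-1.46) and the maintenance methyltransferase Dnmt1 (-1.15) fell in lung. In the Notch pathway, 1 of 13 genes rose in each tissue, the receptor Notch4 in intestine (1.75) and the target Hey1 in lung (1.09), and none fell by limma.

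To show which genes ran most like each member, genes above the median of all log2 values were ranked by the root mean square difference of log2 values over the 40 arrays, each gene centred on its own mean. These distances mostly reflect the 4 group means and carry no test. For Dlk1 the nearest were the membrane protein Emp2 (0.59 log2 units), the laminin receptor Bcam (0.75) and the laminin chain Lamb3 (0.79). For Meg3 they were Abi3bp (0.39), the cadherin Cdh22 (0.41) and Ypel3 (0.45). For Igf2 they were Shf (0.24), Mapk6 (0.26) and Dab2 (0.26), and for H19 Nagpa (0.18), Gss (0.18) and Phf19 (0.18). Mest was nearest to the transcription factor Nfib (0.17), Scarf2 (0.19) and P4ha1 (0.20), and Grb10 to Rnf144a (0.15), the microfibril gene Mfap2 (0.15) and Myh10 (0.18). Plagl1 was nearest to the Wnt receptor Fzd2 (0.20), Marcksl1 (0.20) and Igdcc4 (0.20), Igf2r to Usf3 (0.19), Dysf (0.23) and Atp2b1 (0.23), and Cdkn1c to Tmem9 (0.11), Abcb6 (0.17) and Zmynd8 (0.17). No member was among the 3 nearest of another.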

How the data were processed

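The members and lists were chosen with earlier results of these data known. The authors deposited normalized summary intensity values on a linear scale for 31099 probe sets; per the submitters' processing notes the tool was RMA, with no version. A genome build and whether both tissues were normalized together are not given in the sources used here. Log2 was taken here. Symbols came from the platform annotation (20832 probe sets with 1 symbol, 436 with several, 9831 with none), of which 20764 were matched by gene identifier to RefSeq GRCr8 for current names. Each gene was represented by its brightest probe set; other member probe sets came from a fit over all non-control sets. All 40 sample columns were used. limma 3.58.1 in R 4.3.3 fitted all 40 arrays with 1 mean per group and no covariate, and gave 5 two-sided contrasts. The fit was tested on simulated data with known changes. Permutation p-values used 100000 resamples and are two-sided. Named were all members and the 3 nearest genes of each. Of each list, up to 4 called genes with the largest change per age comparison were named. Begain, Dio3, Igf2bp3, Lin28a, Hmga2, Igfbp4 and Igf1 were chosen after their values were seen. The closest pair of arrays correlated at 0.99 over bright genes and none was treated as a duplicate. The number of arrays limits the precision, and no detection calls were used. Replicate numbers were not taken to pair the samples, since not every same-numbered pair passed a correlation of 0.1: between tissues at E16, 7 of 10 same-numbered pairs had deviations correlated above 0.1, and at E20, 4 of 10.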

Additional observations from a re-analysis of the deposited data

Results flagged for a closer look

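The change from E16 to E20 differed between lung and intestine in 6 of 9 members by the limma fit. Lung minus intestine, it was 6.39 for Dlk1, 3.31 for Meg3, 1.80 for Mest, 1.07 for Grb10, -1.12 for Igf2 and -1.44 for H19. Dlk1 and Meg3 were called in both tissues with opposite sign, while the other 4 rest on changes that were under 2-fold in lung or in both tissues. Igf2r in lung E20 replicate 6 stood at 11.05, far below the other arrays of its group, and this array also had the highest mesothelium markers of its group (9.94, group median 8.89). It was the 1 such array among 36 sets of 10 values, where chance flags about 1 in 20.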

How the results depend on the processing

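Of 585 values (45 member changes under 13 alternatives), 583 kept their direction. The exceptions were Igf2r in lung when arrays were centred (-0.028) and Grb10 between tissues at E16 when probe sets were averaged (-0.031), whose probe sets disagree there. In 7 cases a call was lost and in 23 gained, 21 of these by dropping the fold minimum. Without it, 9 members passed in intestine, 8 in lung and 9 between tissues at E16. Of all 14218 genes, 4195 were then higher and 5964 lower at E20 in intestine, and 4692 and 4787 in lung. Between tissues at E16, 3389 were then higher and 5721 lower in lung. Tested against a 2-fold change, 1 passed at E16 (Dlk1), 4 in place of 6 differed in their change between tissues (Igf2 and Grb10 lost) and 6 in place of 7 differed at E20 (Plagl1 lost). With averaged probe sets these were 5 and 6 (Igf2 lost in both). The number of linked pairs that correlated, 2, became 1 with Spearman's rho and 0 with averaged probe sets, where 3 dim sets enter for Igf2. Without all 11 arrays with transcripts of other tissues this number became 1. Igf2 and H19 in intestine at E16 stayed (r = 0.95, adjusted permutation p = 0.0440, 7 arrays left). In lung at E16 the relation no longer passed (r = 0.92, adjusted permutation p = 0.0863, 6 arrays left). With the replicate number as a replicate block, the counts of called members stayed at 5 (intestine), 2 (lung), 6 (difference), 2 (E16) and 7 (E20). At E16, 6 of 10 intestine arrays correlated best with the lung array of their own number, and 1 of 10 did at E20. Between the ages this held for 2 of 10 arrays in each tissue. Whether same-numbered arrays at E16 share an embryo or litter was not tested. Of the 27 nearest genes, 20 were the same after quantile normalization. The alternatives without the 4 arrays with cardiac transcripts, and without all 11, were chosen after seeing the data. Levels near the lower end of the scale, such as Dlk1 in lung at E16, bound how well its fold is known.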
